A study of Homo sapiens with 6 samples.

Results

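The kinetochore and spindle checkpoint genes described here are 36 listed genes of the centromere, the kinetochore, the spindle checkpoint and the chromosomal passenger complex. Each gene was read from 1 probe set, the brightest on average of those that name that gene alone, and all 36 were measured, among 19775 genes in all. They were grouped by sub-complex into 11 inner centromere genes, 9 genes of the NDC80, MIS12 and SKA complexes, 10 genes of the checkpoint and the kinetochore corona, and 6 genes of the passenger complex and the shugoshins.

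The cells were DLD1, an established human colorectal adenocarcinoma line. One group of 3 cultures was exposed for 12 h to 10 µM SAH-BCL9B, a stapled peptide made to disrupt the complex of BCL9 and beta-catenin, and the other group of 3 was exposed for 12 h to the DMSO vehicle. The comparison asks how transcript levels differed after that exposure. All arrays came from the same line, no control peptide was in the design, and the labels call the cultures triplicates without saying that they were grown at separate times, so the p-values measure the spread between these cultures. Values are log2 expression levels as the authors deposited them, and every n below is 3 arrays per group.

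The kinetochore is the protein assembly by which a chromosome holds on to spindle microtubules in mitosis. Its inner layer sits on chromatin marked by the histone variant CENP-A, its outer layer grips the microtubule, and the spindle checkpoint holds back anaphase until every kinetochore is attached. The chromosomal passenger complex, with the kinase Aurora B, releases faulty attachments. Many of these genes are transcribed mainly in G2 phase and mitosis, so in dividing tissue their transcripts are known to follow the share of cells in those phases.

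The 6 arrays had medians of 6.58 to 6.62. Array SAH-BCL9B 2 stood somewhat apart, with correlations of 0.987 to 0.991 with the other arrays, and its ACTB 3′ minus 5′ difference, a measure of RNA integrity, was 0.74, against 1.20 and 1.33 in the other SAH-BCL9B arrays and 1.21 to 1.38 in the vehicle arrays. Of 9 colon epithelial marker genes, the median level was 13.59, with KRT8 higher and VIL1 lower in SAH-BCL9B (log2 change 0.50 ± 0.08 and -0.86 ± 0.09, SE; limma adjusted p = 0.0113 and 0.00303). The levels of the 9 genes ran from 7.05 to 15.04. The dimmer ones were CDX1, LGALS4, VIL1 and CDX2, with vehicle means of 7.12, 7.22, 9.02 and 9.76. The 4 probe sets of VIL1 ranged from -0.86 to -0.02, with a mean of -0.40. KRT8 had a limma adjusted p of 0.0569 without vehicle 1, and one above 0.05 with the replicate number as a block. Of 10 measured fibroblast, immune and endothelial markers, the median level was 5.87 and 8 lay below the median of all probe sets. None of these 10 passed limma's test, and none had an unadjusted p under 0.05.

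After SAH-BCL9B, 7 of the 36 genes were lower and none was higher at a limma adjusted p under 0.05. The genes that fell were CENPF, CENPM, CENPE, NDC80, NUF2, TTK and SKA1, by 1.34-fold to 1.63-fold. Of these, 5 differed by at least 1.5-fold and passed, as did 1.32% of all genes downward. The 7 genes made up 19.4% of the members, where 3.43% of all genes were lower and 3.49% higher by the same rule. That background holds dimmer genes: all 36 members had a mean level over 6.61, as did 12258 of the 19775 genes. When only those 12258 genes were tested, 10 of the 36 members were lower, and 8.24% of the genes tested. A negative change was found in 34 of the 36, against 44.9% of all genes, and the median log2 change was -0.20, against 0.02 over all genes. The 3 SAH-BCL9B arrays lay entirely below the 3 vehicle arrays in 20 members, or 55.6%, against 12% of all genes, and entirely above them in none. Over all 19775 genes, 5599 had no overlap in either direction. At an unadjusted p under 0.05, 17 members were lower and 0 higher, where 9.22% of all genes were lower and 2412 of the 19775 higher. In bulk RNA, fewer cells in mitosis and less RNA per cell cannot be told apart.

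CENPF, CENPM and CENPE passed in all 15 alternative settings. The other members that fell depended on single arrays: leaving out SAH-BCL9B 1, 2 or 3 gave 3, 8 or 4 lower members, and leaving out vehicle 1, 2 or 3 gave 4, 3 or 6. With the replicate number as a block, 3 members were lower. With the ACTB difference as a covariate, 7 members fell, 6 of them the same. Differences between members in the size of their change were not tested.

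**Figure D1:**
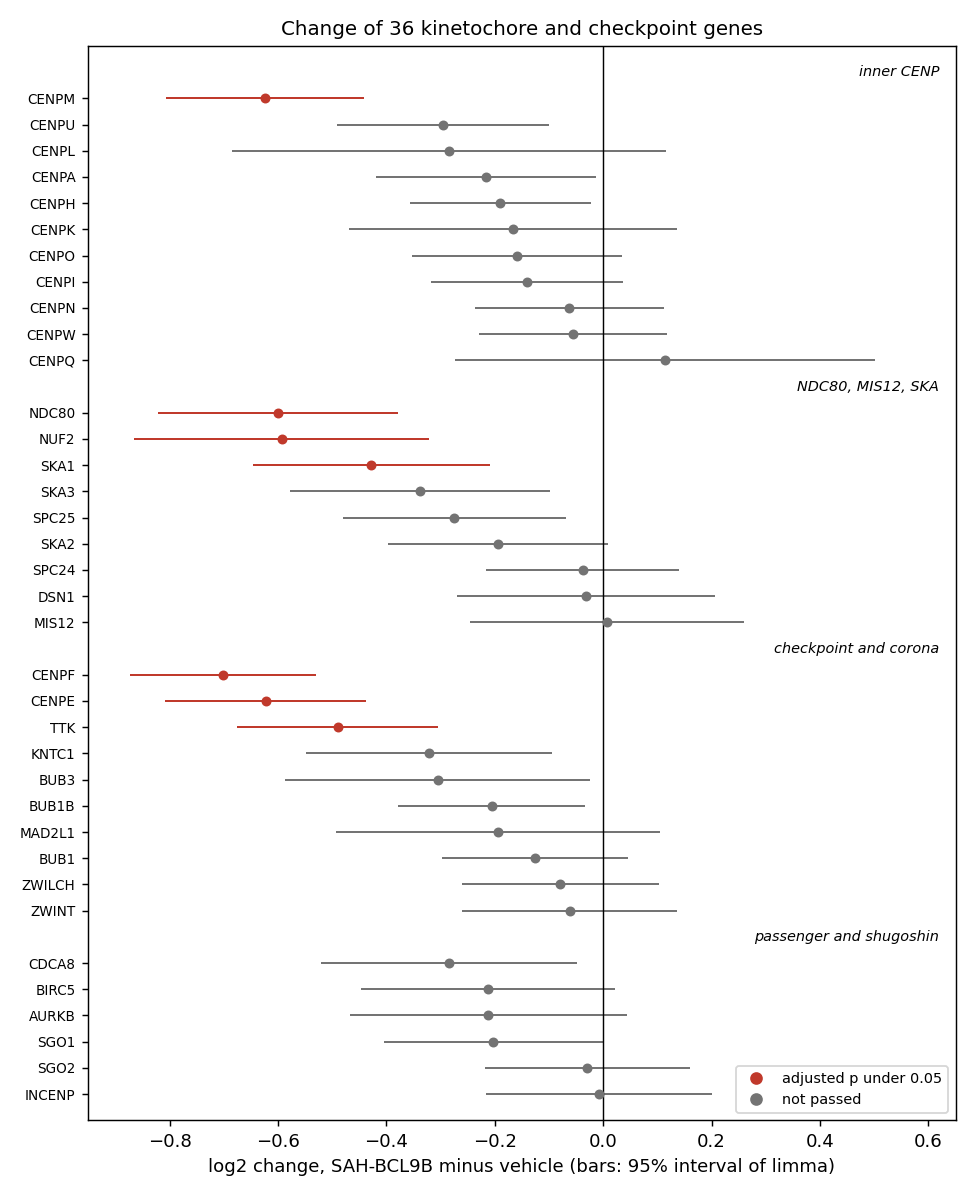
Log2 change of the 36 genes (SAH-BCL9B minus vehicle, horizontal axis) by sub-complex, with limma's 95% intervals; red marks an adjusted p under 0.05. The 7 red genes lie between -0.70 and -0.43, the passenger group holds none of them, and CENPQ and MIS12 are the members above 0.

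Of the 11 inner centromere genes, CENPM fell, 0 rose and 10 did not pass (limma), and the group's median log2 change was -0.17. At an unadjusted p under 0.05, 4 were lower and 0 higher. CENPM encodes a subunit of the constitutive centromere-associated network, the inner platform on which the rest of the kinetochore is built. Its log2 levels were 9.90, 9.97 and 10.04 in the SAH-BCL9B arrays, against 10.64, 10.63 and 10.52 in the vehicle arrays. Every treated array was low and the groups did not overlap (log2 change -0.62 ± 0.08, SE, limma adjusted p = 0.00552).

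CENPU, of the subcomplex that also holds CENPO and CENPQ, came next, at 12.13, 12.35 and 12.23 in the SAH-BCL9B arrays and 12.53, 12.58 and 12.48 in the vehicle arrays. The groups did not overlap, but the change of -0.30 ± 0.08 (SE) did not pass (limma adjusted p = 0.0839). CENPU was 1 of the genes whose probe sets differed in size: its dimmer probe sets had changes of -0.47 and -0.87, the last of which passed when all probe sets were tested by themselves (adjusted p = 0.012). With the mean of its 3 probe sets CENPU changed by -0.54 and passed (adjusted p = 0.0075), and it also passed with the filter on low values, the variance trend, array weights or without SAH-BCL9B 2 (range 0.0075 to 0.25 over the alternatives).

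CENPQ was the inner gene with a positive value, and its arrays were scattered. It had 8.95, 8.62 and 9.02 in the SAH-BCL9B arrays, against 8.78, 9.04 and 8.43 in the vehicle arrays. The groups overlapped throughout (0.11 ± 0.17, SE, limma adjusted p = 0.79). CENPA, the centromeric histone H3 variant itself, averaged 9.42 ± 0.11 in SAH-BCL9B and 9.63 ± 0.07 in vehicle (SD), with no overlap and a change of -0.22 that did not pass (limma adjusted p = 0.203). CENPH, CENPI and CENPO, also of the inner network, had no overlap either and values from -0.19 to -0.14. CENPK, CENPL, CENPN and CENPW overlapped, with values from -0.28 for CENPL to -0.06 for CENPW, which binds DNA through a histone fold. Without SAH-BCL9B 2 the log2 change was -0.09 for CENPL and -0.05 for CENPK, and with the ACTB 3′ minus 5′ covariate it was -0.05 for CENPL and -0.02 for CENPK. The other probe set of CENPL, at a mean level of 8.92, against 8.93 for the one used, changed by -0.41 ± 0.14 (SE). It did not pass over all probe sets (limma adjusted p = 0.202).

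Of 9 genes in the NDC80, MIS12 and SKA group, NDC80, NUF2 and SKA1 fell, 0 rose and 6 did not pass (limma), and the median change was -0.27. At an unadjusted p under 0.05, 5 were lower and 0 higher. NDC80 and NUF2 form the dimer whose globular heads contact the microtubule. NDC80 measured 9.74, 9.60 and 9.83 in the SAH-BCL9B arrays, against 10.35, 10.42 and 10.20 in the vehicle arrays. For NUF2 the levels were 9.85, 9.55 and 9.90 in SAH-BCL9B and 10.40, 10.47 and 10.21 in vehicle. In both genes SAH-BCL9B 2 was the lowest treated array and vehicle 3 the lowest control, and the groups stayed apart.

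The change was -0.60 ± 0.10 for NDC80 and -0.59 ± 0.12 for NUF2 (SE; limma adjusted p = 0.0123 and 0.0239). NDC80 missed the threshold without SAH-BCL9B 1, vehicle 1 or vehicle 2 (adjusted p = 0.0506, 0.0647 and 0.052), and with the replicate number as a block (0.0669). NUF2 missed it without those arrays or SAH-BCL9B 3 (0.056 to 0.106), with the replicate number as a block, and when every probe set was tested by itself (0.0555). SPC24 and SPC25 form the dimer that anchors the complex to the inner kinetochore. SPC25 averaged 9.26 ± 0.14 in SAH-BCL9B and 9.53 ± 0.02 in vehicle (SD) and its change of -0.27 did not pass (limma adjusted p = 0.117). SPC24 averaged 9.13 ± 0.07 and 9.17 ± 0.06, with overlapping groups and a 95% interval of -0.22 to 0.14 for the change.

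The SKA complex helps kinetochores keep hold of shortening microtubules. SKA1 had 7.86, 7.89 and 8.07 in the SAH-BCL9B arrays, against 8.30, 8.50 and 8.31 in the vehicle arrays. These groups did not overlap, and SKA1 fell by 0.43 on the log2 scale (SE 0.09, limma adjusted p = 0.0364). Without any 1 of the 6 arrays SKA1 missed the threshold (0.0552 to 0.126). It also did so with the replicate number as a block, every probe set tested singly (0.0804) or the ACTB covariate (0.0673). Its only probe set carries the manufacturer's mark for probes that may also bind other transcripts, as do those used for CENPA, CENPH and CENPL.

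SKA3 was at 9.19, 9.44 and 9.13 in SAH-BCL9B and 9.64, 9.65 and 9.48 in vehicle, again without overlap. SAH-BCL9B 2 was the highest treated array here. The change of -0.34 ± 0.10 (SE) did not pass (limma adjusted p = 0.102), and without SAH-BCL9B 2 it was -0.43 and did (adjusted p = 0.0307, range 0.017 to 0.3 over the alternatives). SKA2 changed by -0.19 with overlapping groups, and its dimmer probe set by 0.00.

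MIS12 and DSN1 encode subunits of the MIS12 complex, the bridge between the inner layer and NDC80. MIS12 had 10.81, 10.64 and 10.61 in the SAH-BCL9B arrays, against 10.59, 10.88 and 10.56 in the vehicle arrays. The groups overlapped, with 1 high array in each, and the 95% interval of the change ran from -0.25 to 0.26. For DSN1 that interval was -0.27 to 0.21.

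**Figure D2:**
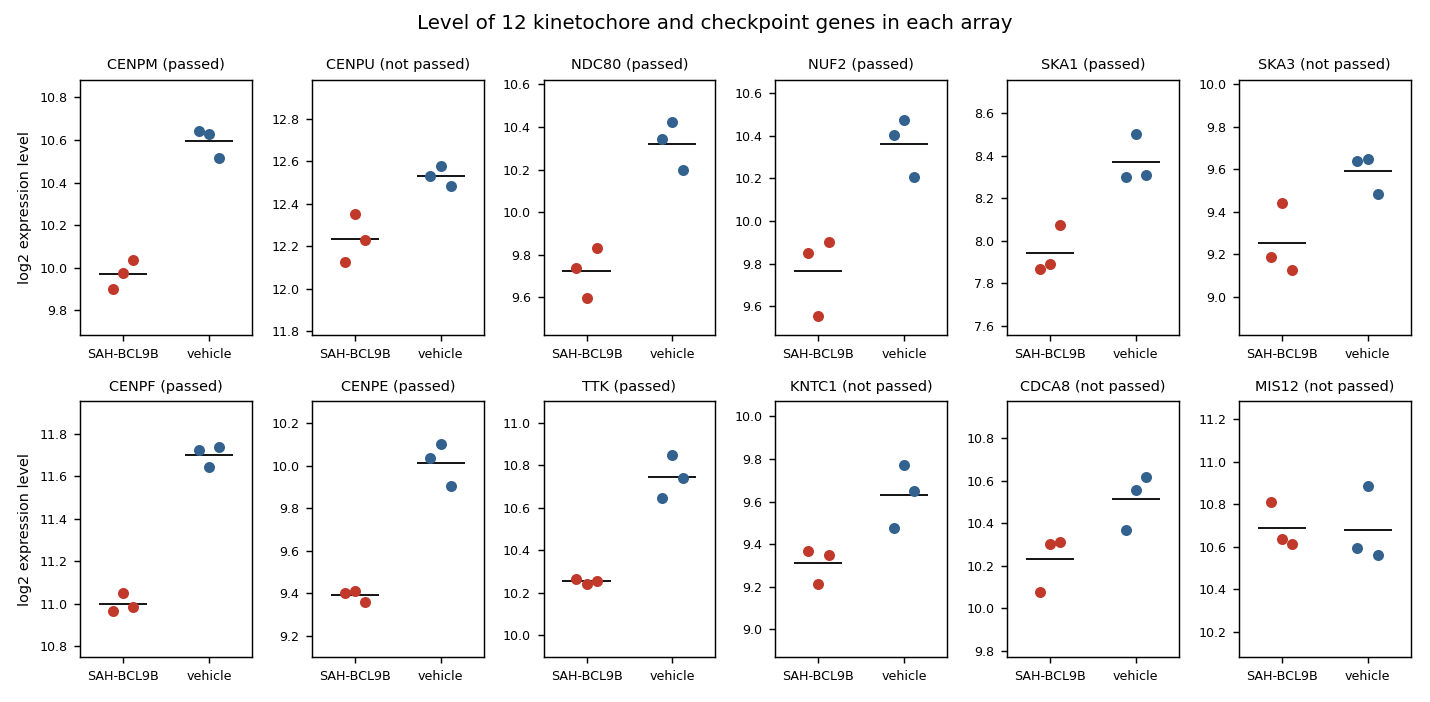
Log2 level of 12 of the genes in each SAH-BCL9B array (red) and each vehicle array (blue); bars are means of 3 arrays, and every vertical axis spans the same range. In 11 panels all red points lie below all blue points, and in the MIS12 panel they overlap.

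The largest fall of the 36 was in the checkpoint and corona group. Of its 10 genes, CENPF, CENPE and TTK fell, 0 rose and 7 did not pass (limma), with a median log2 change of -0.26. At an unadjusted p under 0.05, 6 were lower and 0 higher. CENPF and CENPE belong to the corona, the fibrous outermost layer that forms before microtubules attach: CENPE is a kinesin motor that carries chromosomes to the spindle equator, and CENPF binds microtubules and dynein regulators. CENPF had 10.97, 11.05 and 10.99 in the SAH-BCL9B arrays, against 11.72, 11.64 and 11.74 in the vehicle arrays. Levels of CENPE were 9.40, 9.41 and 9.36 in SAH-BCL9B and 10.03, 10.10 and 9.90 in vehicle. Within each group the arrays of both genes lay close together, and the groups were far apart.

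CENPF fell 1.63-fold (log2 change -0.70 ± 0.07, SE, limma adjusted p = 0.00309) and CENPE 1.54-fold (-0.62 ± 0.08, 0.00588). A second probe set of CENPF changed by -0.83 and also passed when tested by itself (adjusted p = 0.0114). The third, at a mean level of 4.16, changed by -0.03.

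TTK encodes MPS1, the kinase that starts checkpoint signalling at unattached kinetochores. It had 10.27, 10.24 and 10.26 in the SAH-BCL9B arrays, against 10.65, 10.85 and 10.74 in the vehicle arrays. The treated arrays were almost level with each other and all lay below the control arrays (-0.49 ± 0.08, SE, limma adjusted p = 0.0131). TTK missed the threshold without SAH-BCL9B 1, SAH-BCL9B 3 or vehicle 2 (adjusted p = 0.052 to 0.0558), and with the replicate number as a block (0.0653).

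Of the checkpoint effectors downstream of TTK, none passed in limma's test. BUB1B, which encodes the BubR1 subunit of the mitotic checkpoint complex, averaged 11.56 ± 0.05 in SAH-BCL9B and 11.76 ± 0.05 in vehicle (SD), a change of -0.21 without overlap (limma adjusted p = 0.157; with the variance trend 0.049, in a range of 0.049 to 0.38 over the alternatives). BUB1, the kinase that marks centromeric chromatin for the passenger complex, changed by -0.13 ± 0.07 (SE) without overlap, and all 5 of its probe sets had negative values. BUB3, the adaptor that brings BUB1 and BubR1 to the kinetochore, changed by -0.31 ± 0.12 (SE, limma adjusted p = 0.196), and SAH-BCL9B 2 was its low array at 12.28, against 12.67 and 12.71 in the other treated arrays. MAD2L1, which encodes the MAD2 protein that binds and blocks CDC20, overlapped between groups at -0.19 ± 0.13 (SE), while its dimmest probe set changed by -0.62 and did not pass either (adjusted p = 0.121). SAH-BCL9B 2 was its lowest treated array at 11.41, against 11.67 and 11.90, and the change ran from -0.37 to -0.04 over the alternatives.

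KNTC1 and ZWILCH encode subunits of the RZZ complex, which builds the corona and recruits dynein. KNTC1 had 9.37, 9.21 and 9.35 in the SAH-BCL9B arrays, against 9.48, 9.77 and 9.65 in the vehicle arrays. The groups did not overlap, with SAH-BCL9B 1 and vehicle 1 nearest to each other, and the change of -0.32 ± 0.10 (SE) did not pass (limma adjusted p = 0.0989), though it did with the filter on low values (0.0454) and the variance trend (0.0393; range 0.039 to 0.27 over the alternatives). ZWILCH and ZWINT, which helps to bring RZZ to the kinetochore, changed by -0.08 and -0.06 with overlapping groups.

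None of the 6 passenger and shugoshin genes passed in limma's test, although all 6 values were negative, with a median of -0.21. At an unadjusted p under 0.05, 2 were lower and 0 higher. CDCA8, which encodes the borealin subunit, had the largest value, with 10.08, 10.30 and 10.31 in the SAH-BCL9B arrays, against 10.37, 10.56 and 10.62 in the vehicle arrays. The groups were adjacent without overlapping (-0.28 ± 0.10, SE, limma adjusted p = 0.152). BIRC5, which encodes survivin, changed by -0.21 ± 0.10 and AURKB, the gene of Aurora B, by -0.21 ± 0.11 (SE), both with overlap. INCENP, the scaffold of the complex, was the dimmest of the 36 at a mean level of 7.17, and its interval ran from -0.22 to 0.20. SGO1, the protector of centromeric cohesion, changed by -0.20 ± 0.09 without overlap. SGO2 changed by -0.03 ± 0.08, and its other probe set by -0.43 (SE 0.40, adjusted p = 0.714, over all probe sets).

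**Figure D3:**
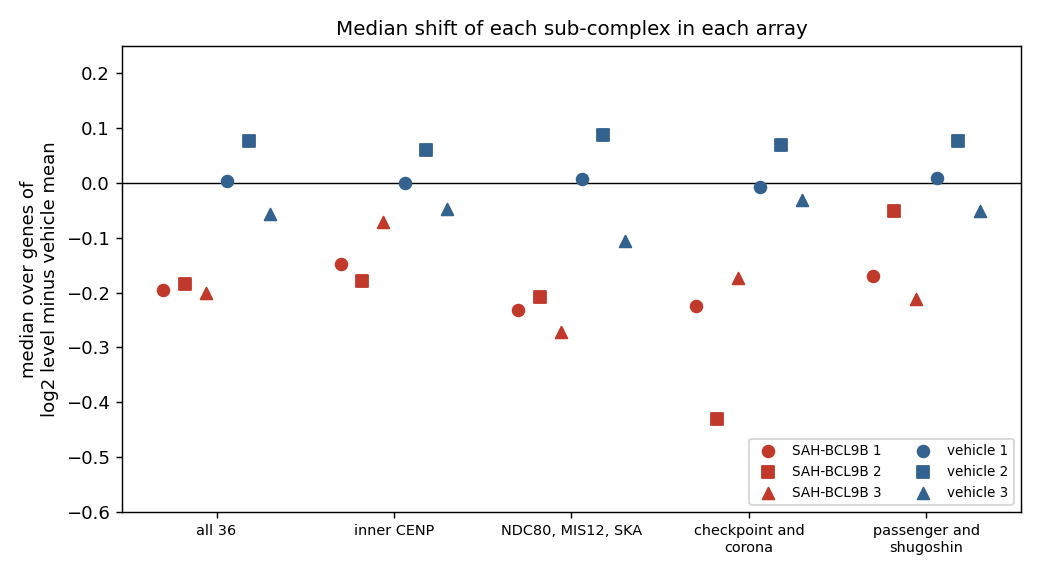
Median over the genes of each sub-complex of the log2 level minus the gene's vehicle mean, for each SAH-BCL9B array (red) and each vehicle array (blue). Over all 36 genes the SAH-BCL9B arrays lie between -0.20 and -0.18 and the vehicle arrays between -0.06 and 0.08; SAH-BCL9B 2 lies lowest in the checkpoint group and highest of the treated arrays in the passenger group.

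Across arrays, the members' median deviation from the vehicle mean was -0.20, -0.18 and -0.20 in SAH-BCL9B 1, 2 and 3, against 0.00, 0.08 and -0.06 in vehicle 1, 2 and 3. Over all genes of the array the same median was 0.01, 0.08 and -0.02 in SAH-BCL9B 1, 2 and 3. Without allowing for that offset, the 3 treated arrays gave almost the same median for the members. Sub-complexes differed more between them: in SAH-BCL9B 2 the checkpoint group's median was -0.43 and the passenger group's -0.05, against -0.23 and -0.17 in SAH-BCL9B 1 and -0.17 and -0.21 in SAH-BCL9B 3. Among the controls, vehicle 2 was the highest array for 27 of the 36 genes and vehicle 3 the lowest for 24. Mean level and change were nearly unrelated across the 36 genes, which share the same arrays (Spearman rho -0.07, n = 36, as a description).

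The array carried 68 probe sets for these genes, several each for 16 of them. Of the 68, 60 had a negative value, and 7 were lower and 0 higher at an adjusted p under 0.05 over all 54613 probe sets (limma), where 1.37% of all probe sets were lower. In 5 genes, CENPI, CENPN, SPC24, SKA2 and BUB3, at least 1 probe set had the opposite sign to the one used. When the probe sets of each gene were averaged, 8 members fell, the 7 above and CENPU.

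**Figure D4:**
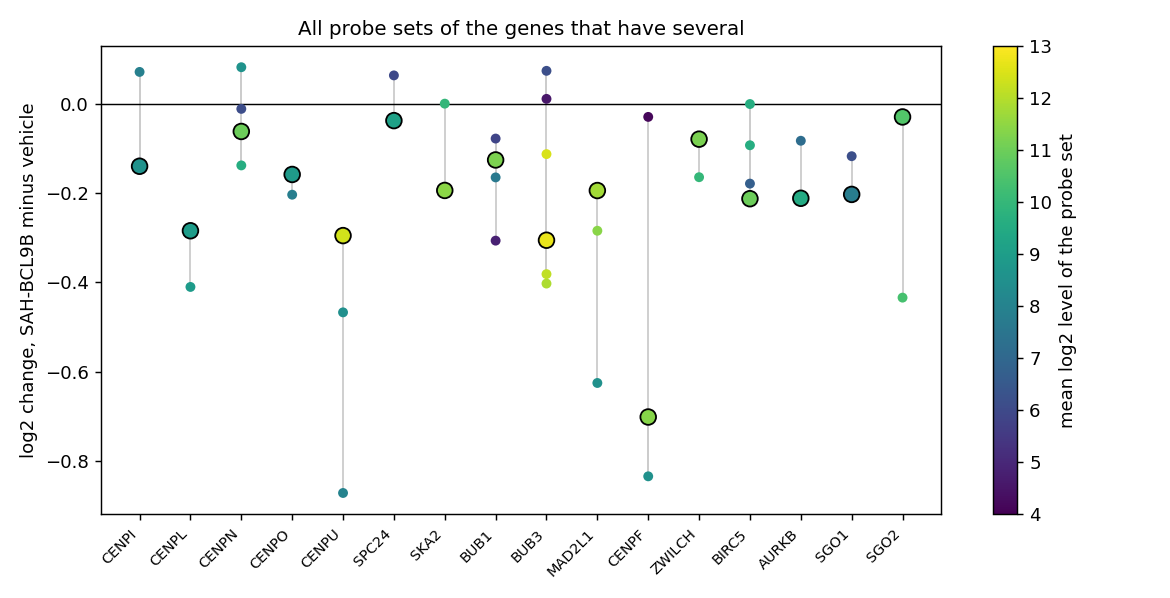
Log2 change (SAH-BCL9B minus vehicle) of every probe set of the 16 genes that have several, coloured by its mean log2 level; the large outlined points are the probe sets used. CENPF, CENPU and BUB3 show the widest spread, and the values above 0 reach 0.08.

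The annotated start regions of the members were compared for a pair of short motifs known from genes of mitosis. TTTGAA is the cell cycle genes homology region (CHR), bound by the DREAM and MuvB complexes, and CCAAT is the box bound by the factor NF-Y; each was searched on both strands, and neither motif contains the other. RefSeq windows of 300 bases, from 250 before the start to 50 after it (GRCh38.p14, the first listed start of each gene), were found for 29 of the 36 members, and not for CENPH, CENPL, CENPM, BUB3, TTK, KNTC1 and BIRC5. TTTGAA was in 48.3% of the members' windows and in 15.4% of the windows of 27305 genes, and CCAAT in 69% and 35.7%. Of the 5 members that fell and had a window, 4 held TTTGAA and 1 held CCAAT, and of the 24 others 10 and 19 did. A match describes these letters only, not a bound site.

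The windows of the NDC80 and NUF2 dimer and of the corona genes CENPF and CENPE are shown because these members fell most among those with a window. Capitals mark every match to TTTGAA or CCAAT on either strand. They lie at chr18:2571307-2571606 (plus strand) for NDC80, chr1:163321704-163322003 (plus) for NUF2, chr1:214602945-214603244 (plus) for CENPF and chr4:103198294-103198593 (minus) for CENPE, each written 5′ to 3′ along the gene.
NDC80: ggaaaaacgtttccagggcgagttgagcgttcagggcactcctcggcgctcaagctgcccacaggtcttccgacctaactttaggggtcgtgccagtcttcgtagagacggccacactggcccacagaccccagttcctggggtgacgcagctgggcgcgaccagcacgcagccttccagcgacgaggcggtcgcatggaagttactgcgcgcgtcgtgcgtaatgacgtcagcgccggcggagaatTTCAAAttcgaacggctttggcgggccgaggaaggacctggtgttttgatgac
NUF2: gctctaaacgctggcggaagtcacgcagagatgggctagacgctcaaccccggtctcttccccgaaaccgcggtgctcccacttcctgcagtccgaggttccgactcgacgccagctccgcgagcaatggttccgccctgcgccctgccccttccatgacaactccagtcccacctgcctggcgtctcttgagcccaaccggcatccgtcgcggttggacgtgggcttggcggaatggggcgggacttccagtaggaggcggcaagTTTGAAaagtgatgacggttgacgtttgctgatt
CENPF: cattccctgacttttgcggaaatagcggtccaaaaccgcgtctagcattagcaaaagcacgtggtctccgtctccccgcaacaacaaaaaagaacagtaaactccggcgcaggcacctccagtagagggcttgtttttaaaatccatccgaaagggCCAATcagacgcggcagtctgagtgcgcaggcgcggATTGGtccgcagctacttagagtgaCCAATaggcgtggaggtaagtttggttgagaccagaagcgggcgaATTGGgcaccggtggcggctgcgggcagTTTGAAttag
CENPE: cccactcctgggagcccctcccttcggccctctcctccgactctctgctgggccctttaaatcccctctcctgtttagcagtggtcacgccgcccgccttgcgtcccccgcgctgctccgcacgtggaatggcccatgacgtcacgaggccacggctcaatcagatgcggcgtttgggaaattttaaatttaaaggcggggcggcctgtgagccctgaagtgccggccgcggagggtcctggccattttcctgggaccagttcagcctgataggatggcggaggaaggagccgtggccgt
NDC80 had its single TTTGAA match, on the opposite strand, beginning at position -3 from the start, NUF2 at 16 and CENPF at 40, while CENPF also held 4 CCAAT matches and CENPE neither motif.

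Of 22 measured further genes of the kinetochore, its assembly and its checkpoint, 2 fell, 1 rose and 19 did not pass, with a median log2 change of -0.14. A negative change was found in 16 and a positive one in 6. At an unadjusted p under 0.05 (limma), 9 were lower and 2 higher, where 9.22% of all genes were lower and 2412 of the 19775 higher. At an adjusted p under 0.05, 3.43% of all genes were lower and 3.49% higher. The SAH-BCL9B arrays lay entirely below the vehicle arrays in 40.9% of the 22, against 12% of all genes. KIF2C, the microtubule-depolymerising kinesin of the centromere, had 10.69, 10.67 and 10.59 in the SAH-BCL9B arrays, against 11.05, 11.18 and 11.18 in the vehicle arrays. Its groups were well apart (-0.49 ± 0.08, SE, limma adjusted p = 0.0123). KIF2C missed the threshold without SAH-BCL9B 3 or vehicle 2 (0.0521 and 0.0558), and with the replicate number as a block (0.0664). SPDL1, which encodes the dynein adaptor Spindly, changed by -0.38 ± 0.09 (adjusted p = 0.0474), missed the threshold without any 1 array (0.0684 to 0.146), and had a second probe set at 0.02. It also missed it after median centring (0.0552), with probe sets averaged (0.33) or tested singly (0.101), with the ACTB covariate (0.067) and with the replicate number as a block.

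The gene that rose was CENPB, which encodes a protein bound to a short motif of centromeric satellite DNA. Its levels were 8.26, 8.29 and 8.33 in the SAH-BCL9B arrays, against 7.84, 7.95 and 7.74 in the vehicle arrays. The groups did not overlap (0.45 ± 0.08, SE, limma adjusted p = 0.0186). CENPB missed the threshold without SAH-BCL9B 1, SAH-BCL9B 3, vehicle 1 or vehicle 3 (0.0607 to 0.0903), and with the replicate number as a block.

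The anaphase-promoting complex, the ubiquitin ligase that the checkpoint restrains, showed no common direction. Of 17 measured genes of the complex, its activators and its partner enzymes, 1 fell, 1 rose and 15 did not pass, with a median of 0.00. These counts were small beside the 3.43% of all genes that fell and 3.49% that rose. A negative change was found in 9 and a positive one in 8. At an unadjusted p under 0.05 (limma), 2 were lower and 1 higher, against 1824 and 2412 of all 19775 genes. UBE2C, its ubiquitin-conjugating enzyme, was at 11.61, 11.59 and 11.54 in SAH-BCL9B, against 12.06, 12.04 and 12.14 in vehicle (-0.50 ± 0.07, SE, limma adjusted p = 0.00902). UBE2C missed the threshold without vehicle 1 (0.0525) and with the replicate number as a block (0.0609). The subunit gene CDC26 rose by 0.39 ± 0.08 (SE, adjusted p = 0.0242). It missed the threshold without any 1 array other than SAH-BCL9B 2 (0.0573 to 0.107), with the replicate number as a block or with probe sets tested singly (0.0621). CDC20, the activator that the checkpoint blocks, changed by -0.16 ± 0.09 and did not pass (adjusted p = 0.354).

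Among 12 genes of cohesin and of its cleavage, 2 fell, 0 rose and 10 did not pass (limma). Of all genes, 3.43% fell and 3.49% rose. At an unadjusted p under 0.05, 2 of the 12 were lower and 1 higher, against 1824 and 2412 of all 19775 genes. The genes that fell were ESPL1, which encodes separase, the protease that opens cohesin at anaphase (-0.48 ± 0.09, SE, limma adjusted p = 0.0204), and the cohesin subunit gene STAG2 (-0.39 ± 0.08, 0.0274). Both missed the threshold without any 1 array other than SAH-BCL9B 2 (highest 0.0898 for ESPL1 and 0.124 for STAG2), or with probe sets tested singly (0.0507 and 0.0677). With the replicate number as a block, both missed it as well. STAG2 also missed it with its probe sets averaged (0.265).

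Of 16 regulators of mitotic transcription, NFYB fell, 0 rose and 15 did not pass (limma), where 3.43% of all genes fell and 3.49% rose. At an unadjusted p under 0.05, 4 were lower and 2 higher, against 1824 and 2412 of all 19775 genes. A negative change was found in 13 of the 16, against 44.9% of all genes. NFYB encodes a subunit of NF-Y. It had 9.38, 9.52 and 9.34 in the SAH-BCL9B arrays, against 10.28, 10.28 and 10.21 in the vehicle arrays. That fall was larger than those of all 36 members (-0.85 ± 0.08, SE, limma adjusted p = 0.00222), was shared by all 4 probe sets of the gene (-0.87 to -0.47), and passed in all 15 alternatives. The other subunit genes, NFYA and NFYC, changed by -0.16 and -0.17 and did not pass. For NFYA, 5 of its 6 probe sets had the opposite sign to the one used, and the mean of the 6 was 0.06. All 6 probe sets of NFYC had negative values.

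FOXM1 and MYBL2 encode transcription factors that act with MuvB on mitotic genes. FOXM1 had 10.30, 10.73 and 10.40 in SAH-BCL9B, against 10.74, 10.75 and 10.70 in vehicle. Here SAH-BCL9B 2 lay with the vehicle arrays. The change of -0.25 ± 0.11 (SE) did not pass (limma adjusted p = 0.257), while without SAH-BCL9B 2 it was -0.38 and did (0.0337), as with array weights (0.0461; range 0.034 to 0.52 over the alternatives). MYBL2 changed by -0.25 ± 0.09 without overlap and did not pass (adjusted p = 0.148), except with array weights (0.0347, range 0.035 to 0.36 over the alternatives).

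**Figure D5:**
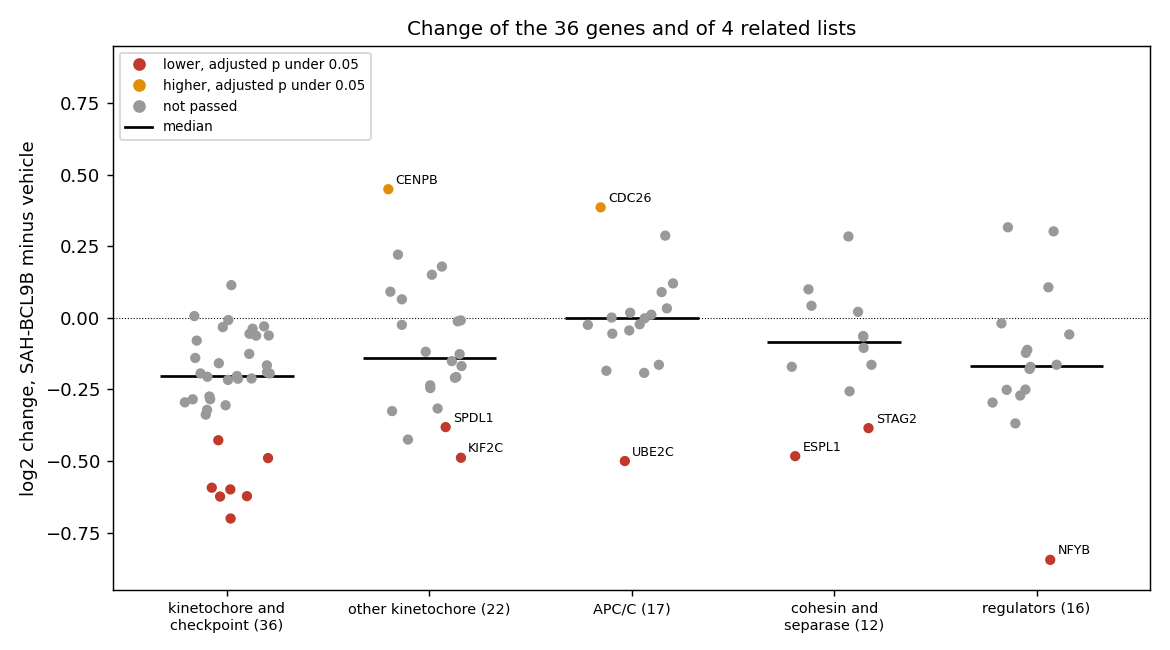
Log2 change (SAH-BCL9B minus vehicle) of the 36 genes and of 4 related lists, with the number of genes measured; each point is a gene and black lines are medians. The medians are -0.20 for the 36 genes, -0.14 for the other kinetochore genes, 0.00 for the anaphase-promoting complex, -0.09 for cohesin and -0.17 for the regulators, and NFYB is the lowest point.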

How the data were processed

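Biotin-labelled cRNA of 6 DLD1 cultures was hybridised to Affymetrix U133 Plus 2.0 arrays for human genes. The authors deposited log2 expression values for 54675 probe sets, made with RMA in affy, per the submitters' processing notes; the sources used here give no versions. RMA evens out the arrays' distributions, which hides any change common to the majority of genes, and it understates changes of dim probe sets. Signal over background is unknown, since detection calls were not used here. Precision is limited by the number of arrays.

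Probe sets were named through GEO's platform annotation, and their symbols compared with RefSeq through Entrez IDs; 41091 named 1 gene, 1801 several, 11721 were unnamed here and 62 were controls. SAH-BCL9B was compared with vehicle in R 4.3.3 by limma (version 3.58.1; functions lmFit and eBayes, no covariate, no filter), with Benjamini-Hochberg adjustment over 19775 genes and a threshold of 0.05. Intervals are limma's, at 95%. The procedure was tested on simulated data. Tables and plots used the R package data.table (version 1.17.8), Python 3.11.15, pandas 2.3.3 and matplotlib 3.10.9.

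The members, gene lists and sub-complexes were chosen with earlier results of these data known. All 36 members were named. Values in every array were given for members past the threshold (at most 4 per sub-complex), for the member with the largest change that did not pass, and for those above 0. Of the other lists, genes past the threshold were named, with CDC20, FOXM1 and MYBL2 in any case; NFYA and NFYC were named after their values were seen. Some genes of the related and marker lists were not analysed here.

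The labels number the cultures, and the main fit assumed no pairing by number. The correlation of deviations from the group means was 0.24, -0.20 and -0.32 for numbers 1, 2 and 3. With means of only 3 arrays, these values cannot show whether the numbers paired the cultures. Alternatives were the replicate number as a block, array weights, a robust fit with a variance trend, quantile normalization repeated, arrays centred on their medians, a filter on genes below 6.61 (the median level of the probe sets), probe sets averaged per gene or tested singly, and omission of each array. The ACTB 3′ minus 5′ difference as a covariate was added after seeing the data.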

Additional observations from a re-analysis of the deposited data

How the results depend on the processing

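The number of the 36 genes that fell, 7 as reported, was 3 with the replicate number as a block and 11 with a robust fit and variance trend, and between 3 and 8 when each array was left out in turn. It was 5 to 10 in the other alternatives. The number of genes changed in the 4 related lists, 8 as reported, was 1 with the replicate block, 4 with every probe set tested by itself, 13 with the filter on low values, 14 with array weights and 15 with the variance trend. Leaving out each array in turn gave 2 to 8. Over all genes the number that fell, 679, was 195 with the replicate block, 380 with every probe set tested by itself, 1010 with the filter on dim probe sets, 1058 with array weights, 1075 with the variance trend and robust fit, and 209 to 727 with each array left out. It was 514 to 771 under the other alternatives. No member rose under any of the 15 alternatives, and the filter on low values removed none of the 36. SKA3 passed with the ACTB covariate, and SKA1 did not.

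Sign changes were limited to genes that did not pass in any setting. CENPQ ran from -0.0457 to 0.261 when each array was left out in turn, DSN1 from -0.114 to 0.0555, MIS12 from -0.0564 to 0.108, INCENP from -0.0638 to 0.0501 and SGO2 from -0.0760 to 0.00815. SPC24 was 0.0126 with its probe sets averaged, DSN1 0.0136 with array weights and 0.0535 with the ACTB covariate, and after a second quantile normalization MIS12 was -0.00983 and INCENP 0.00602. The cause of these shifts was not tested. The 3 arrays per group limit what could be detected.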
